A study of Homo sapiens with 6 samples.

Results

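Caveolins, cavins and the proteins that line the neck of caveolae were followed as a group of 10 genes: the caveolins CAV1, CAV2 and CAV3, the cavins CAVIN1, CAVIN2 and CAVIN3, and the coat and neck proteins EHD1, EHD2, PACSIN2 and PACSIN3. The genes were chosen by name, with earlier names matched (PTRF for CAVIN1, SDPR for CAVIN2, PRKCDBP for CAVIN3). Earlier results of these data were known at that choice, so the shares of all tested genes given below describe the list and do not test it. All 10 were found among the 63677 identifiers counted, and 9 of them were among the 14286 genes with enough counts to be tested.

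Caveolae are small flask-shaped pits of the plasma membrane, rich in cholesterol, that store membrane area, buffer mechanical stretch and gather signalling proteins. Caveolins are hairpin membrane proteins that insert into the inner leaflet and oligomerize, cavins then coat the bulb from the cytosol, and EHD2 with PACSIN proteins holds the neck. Adipocytes, endothelium, fibroblasts and muscle are the cells best known for caveolae, whereas the colonic epithelium has few, and caveolin-1 is also used widely as a marker protein of detergent-resistant membrane.

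SW480, an established line from a human colorectal adenocarcinoma, was used to ask which transcripts differ when POU5F1B, a retrogene copy of the pluripotency gene POU5F1, is overexpressed. Each of the 6 libraries came from cells transduced with a vector that carried either GFP, the control, or POU5F1B behind a promoter switched on by doxycycline, and there were 3 libraries of each kind. The GFP cells received doxycycline as well: every culture was given 1 µg/mL of it for 72 h before harvest, in L-15 medium with fetal calf serum, and per the methods the cells had been selected with puromycin after lentiviral transduction and the POU5F1B protein carried an HA tag. Nothing says that libraries of a group came from separate cultures or transductions, so that p-values measure the spread between these libraries, which may be technical, and transduced populations of a single line are the only model here.

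Libraries held between 10767947 and 12787637 counts, and reads of POU5F1B itself numbered 15027, 11393 and 1458 in POU5F1B replicates 1, 2 and 3 but 6, 5 and 1 in the control libraries of the same numbers. The replicate 3 libraries stood apart from the rest. GFP replicates 1 and 2 varied around each other with a biological coefficient of variation of 8.03%. This coefficient was 43.9% between GFP replicates 1 and 3 and 40.6% between GFP replicates 2 and 3. It was 21.1% between POU5F1B replicates 1 and 3 and 24.0% between POU5F1B replicates 2 and 3, against 9.83% between POU5F1B replicates 1 and 2. Results are therefore given for all 6 libraries and for replicates 1 and 2 alone. Of the epithelial markers, KRT8 and KRT18 were abundant in every library, while CDX1 and LGALS4, both also listed as markers of colorectal epithelium, were at 0.833 CPM or below throughout (CPM, reads counted for a gene relative to the TMM-scaled total of its library).

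CAV1, CAV2 and CAVIN2 are the members whose level was lower in every POU5F1B library than in any GFP library, so the sequence just upstream of each is shown first. The windows are the 250 bases before the transcription start in RefSeq's promoter table (GRCh38.p14), found by exact match on GRCh37, the build of the counts, and written 5′ to 3′ on the strand of the gene. Capitals mark the GC box GGGCGG in either orientation. The regions are chr7:116164840-116165089 on the plus strand for CAV1, chr7:116139542-116139791 on the plus strand for CAV2 and chr2:192711815-192712064 on the minus strand for CAVIN2.
CAV1: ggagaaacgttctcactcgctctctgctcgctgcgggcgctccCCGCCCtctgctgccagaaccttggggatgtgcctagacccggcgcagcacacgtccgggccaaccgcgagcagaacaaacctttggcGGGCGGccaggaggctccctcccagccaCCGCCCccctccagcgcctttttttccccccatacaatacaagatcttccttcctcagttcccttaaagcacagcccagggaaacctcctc
CAV2: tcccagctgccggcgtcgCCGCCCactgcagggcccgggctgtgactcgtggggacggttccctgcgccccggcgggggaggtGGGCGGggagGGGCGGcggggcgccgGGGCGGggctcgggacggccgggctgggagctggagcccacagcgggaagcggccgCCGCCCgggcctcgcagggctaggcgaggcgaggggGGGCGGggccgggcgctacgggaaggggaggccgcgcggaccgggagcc
CAVIN2: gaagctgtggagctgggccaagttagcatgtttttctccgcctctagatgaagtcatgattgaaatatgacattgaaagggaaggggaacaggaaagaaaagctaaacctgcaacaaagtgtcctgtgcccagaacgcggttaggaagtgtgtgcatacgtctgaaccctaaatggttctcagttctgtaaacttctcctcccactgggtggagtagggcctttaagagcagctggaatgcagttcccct

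The 3 windows differ in base composition. G and C make up 63.2% of the CAV1 window, 83.2% of the CAV2 window and 48.0% of the CAVIN2 window. The GC box occurs 3 times upstream of CAV1, between 91 and 207 bases from the start, 6 times upstream of CAV2, between 49 and 232 bases from it, and at no position upstream of CAVIN2. Of 35116 promoter windows of 300 bases in the table, 45.0% hold at least 1 GC box. Searches on both strands for the octamer ATGCAAAT, the TATA box TATAAA and the E-box CACGTG found no match in the 1 window examined for each of these genes, and 1.77%, 11.5% and 7.26% of all windows hold these motifs. The table holds 3 windows for CAV1, 2 for CAV2 and 1 for CAVIN2. Only the window at the start of the canonical transcript is described here. A promoter window was found for 7 of the 10 members, and CAVIN1, CAVIN3 and PACSIN3 had none in the table.

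Across the 6 libraries, none of the 9 tested members passed the study's threshold, an adjusted p under 0.05 (limma voom, Benjamini-Hochberg over all tested genes) with more than a 2-fold change, and 0% of all 14286 tested genes passed it. POU5F1B itself did not pass, with a log2 fold change of 10.7 and an adjusted p of 0.252 in this fit (limma voom). Its adjusted p was 8.31e-09 in replicates 1 and 2 (limma voom). A member that fails the threshold over 6 libraries is thus not shown to be unchanged. CAV1, CAV2 and CAVIN2 had the lower values in POU5F1B cells. PACSIN3 was higher in every POU5F1B library than in any GFP library, and the other 5 overlapped between groups. At an unadjusted p under 0.05, 3 of the 9 members were counted, CAV1, CAV2 and CAVIN2, all lower, against 11.9% of all tested genes in either direction and 5.82% in the lower direction. Without overlap between groups, 3 of 9 members were lower (9.21% of tested genes) and 1 of 9 was higher (10.2%).

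**Figure D1:**
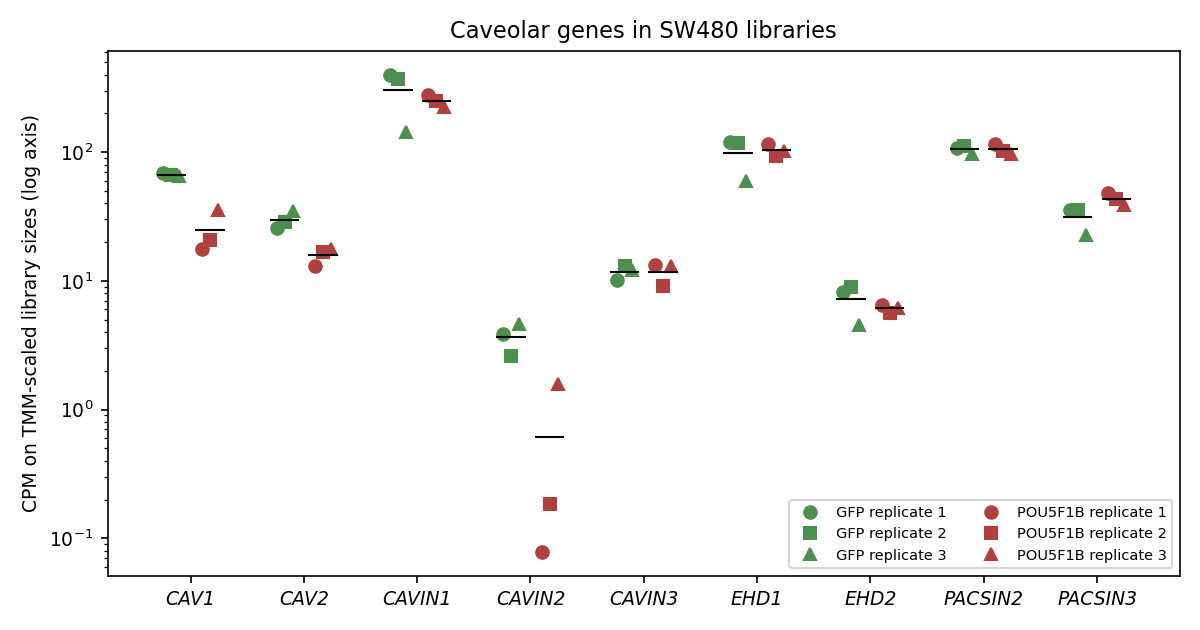
Level of the 9 tested caveolar genes in each SW480 library, in CPM on TMM-scaled library sizes (log axis), with GFP libraries in green, POU5F1B libraries in red, a symbol shape for each replicate number and a black line at the mean of 3 libraries. CAV1, CAV2 and CAVIN2 separate with POU5F1B cells below, and PACSIN3 separates with POU5F1B cells above. GFP replicate 3 lies below the other GFP libraries for CAVIN1, EHD1, EHD2 and PACSIN3, and by smaller margins for PACSIN2 and CAV1.

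The count of members past the threshold depended on the replicate 3 libraries. In replicates 1 and 2 alone, 2 of the 9 members passed, CAV1 and CAVIN2, both lower, where 8.36% of all tested genes passed in either direction and 5.15% passed as lower. By adjusted p alone, CAV1, CAV2, CAVIN1 and CAVIN2 were lower (4 of 9 members, beside 15.5% of all tested genes) and PACSIN3 was higher (1 of 9, beside 14.1%), again with limma voom. The median log2 fold change over the 9 members was -0.16 with 6 libraries and -0.50 with 4, where the median of all tested genes was -0.023 and -0.0050. With edgeR's quasi-likelihood test on 6 libraries 0 members passed, and the share of all tested genes was not computed there. DESeq2 passed CAV1 (1 of 9 members, beside 1.62% of tested genes), while sample quality weights in voom passed CAV1 and CAVIN2 (beside 7.54%), as did leaving out GFP replicate 3 (beside 4.16%).

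CAV1 (ENSG00000105974), on chromosome 7 at 116165090 to 116201233 of GRCh37 (plus strand, canonical transcript), encodes caveolin-1, the main structural protein of caveolae outside muscle. Its level was 69.1, 66.0 and 65.0 CPM in GFP replicates 1, 2 and 3 and 17.7, 20.8 and 35.6 CPM in POU5F1B replicates 1, 2 and 3. The GFP libraries lay close together, GFP replicate 3 included, and all were above every POU5F1B library. POU5F1B replicate 3 was the highest of its group, and it was also the POU5F1B library with the fewest POU5F1B counts. Whether the 2 are linked was not tested.

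Mean CAV1 was 66.7 ± 2.14 CPM with GFP against 24.7 ± 9.59 CPM with POU5F1B (SD, n = 3), a ratio of 2.70 to 1. On the log2 scale this was a fold change of -1.50 ± 0.24 (SE), with an adjusted p of 0.185 in limma voom. In replicates 1 and 2 it was -1.83 ± 0.13 (SE), with an adjusted p of 1.19e-06 in limma voom. The fold is larger without the replicate 3 libraries, and the gene passes the threshold only then or under the alternatives named above. In total RNA from a culture, fewer cells with CAV1 transcript and less CAV1 transcript per cell cannot be told apart.

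CAV2 (ENSG00000105971) encodes caveolin-2, which depends on caveolin-1 to leave the Golgi apparatus and joins it in mixed oligomers. It lies next to CAV1 on the same strand, at 116139792 to 116148595 of chromosome 7, and its canonical transcript ends 16.5 kb before CAV1 begins. The GFP libraries held 25.9, 28.5 and 34.7 CPM for replicates 1, 2 and 3, and the POU5F1B libraries 13.0, 16.8 and 17.8 CPM. Every POU5F1B library was below every GFP library, and both replicate 3 libraries were the highest of their group. The means were 29.7 ± 4.51 and 15.9 ± 2.55 CPM (SD, n = 3), a log2 fold change of -0.91 ± 0.20 (SE) with an adjusted p of 0.210 in limma voom.

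The difference in CAV2 was nearly the same without the replicate 3 libraries, at a log2 fold change of -0.90 ± 0.16 (SE) with an adjusted p of 0.00127 in limma voom. CAV2 did not exceed a 2-fold difference in any of the settings tried, where the log2 fold change ran from -0.9996 to -0.76. Pair by pair, the log2 difference in CAV2 was -0.99, -0.75 and -0.96 for replicate numbers 1, 2 and 3, whereas that in CAV1 was -1.96, -1.66 and -0.87.

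Per kilobase of canonical transcript, CAV1 was the more abundant caveolin transcript in every library. The ratio of CAV1 to CAV2 per kilobase was 3.21, 2.78 and 2.25 in GFP replicates 1, 2 and 3 and 1.64, 1.49 and 2.41 in POU5F1B replicates 1, 2 and 3. The ratio overlapped between groups through the replicate 3 libraries, since POU5F1B replicate 3 had a larger ratio than GFP replicate 3. In replicates 1 and 2 both POU5F1B ratios were below both GFP ratios.

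CAV3 (ENSG00000182533; chromosome 3, 8775488 to 8788444, plus strand) encodes the caveolin of skeletal and cardiac muscle. It had 1 count in GFP replicate 2, 1 count in POU5F1B replicate 1 and no count in the other 4 libraries. All values were under the floor of 3 counts, which corresponds to between 0.228 and 0.278 CPM, so no difference was detectable at this depth and no fold is given. CAV3 shares its locus with genes on the opposite strand (OXTR, SSUH2 and RAD18), and the strand setting of the counting was not stated. The striated muscle marker MYH7 had no count in any library, and the 4 markers of that list summed to between 1.99 and 9.43 CPM in GFP libraries and 5.92 and 8.39 CPM in POU5F1B libraries.

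**Figure D2:**
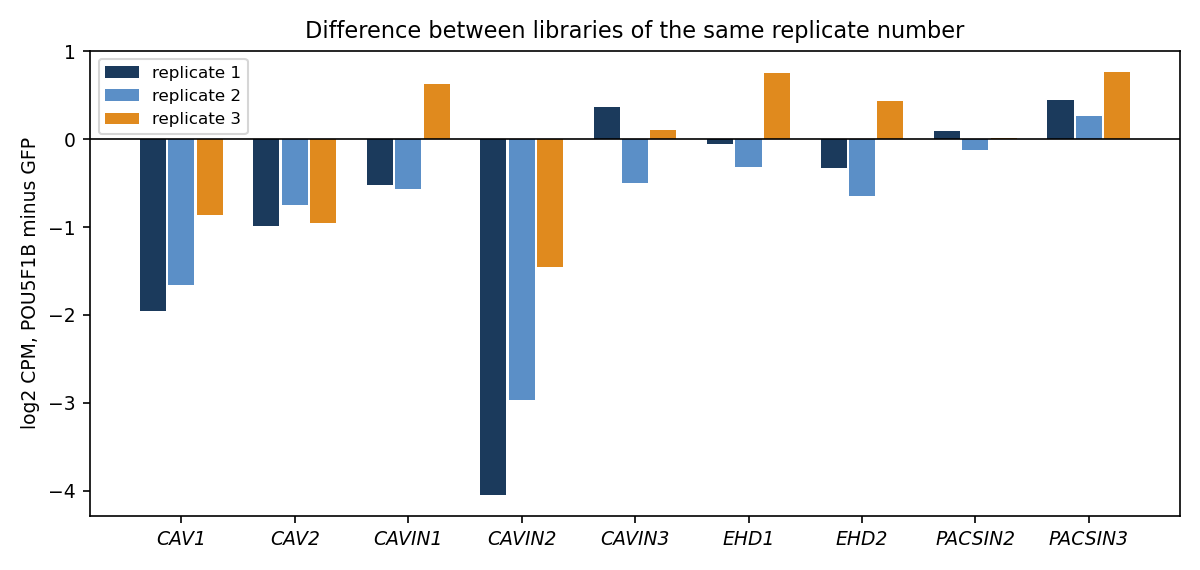
Difference in log2 CPM between the POU5F1B and the GFP library of the same replicate number for each tested caveolar gene, with dark blue bars for replicate 1, light blue for replicate 2 and orange for replicate 3. CAV1, CAV2 and CAVIN2 are below 0 at all 3 numbers and PACSIN3 above 0 at all 3, while CAVIN1, EHD1 and EHD2 lie below 0 at numbers 1 and 2 and above 0 at number 3.

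Among the cavins, CAVIN2 had the largest difference, CAVIN1 differed in direction between replicate numbers and CAVIN3 showed no separation. CAVIN2 (ENSG00000168497; chromosome 2, 192699036 to 192711814, minus strand) encodes a phosphatidylserine-binding coat protein that helps to bend and extend the caveolar membrane. The GFP libraries had 46, 34 and 53 reads for replicates 1, 2 and 3, or 3.87, 2.59 and 4.60 CPM, and the POU5F1B libraries had 1, 2 and 19 reads, or 0.0785, 0.185 and 1.58 CPM. POU5F1B replicates 1 and 2 were under the floor of 3 counts, and POU5F1B replicate 3, although below every GFP library, was well above both.

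Because so few reads were counted, the CAVIN2 ratio is given with its counting interval (exact, 95%), which covers counting error only. Over replicates 1 and 2, 80 reads in GFP libraries stood against 3 in POU5F1B libraries, a GFP to POU5F1B ratio of 25.1 (8.28 to 124) after scaling for library size. In replicate 3 the ratio was 2.91 (1.70 to 5.21), and over all 6 libraries, with 133 against 22 reads, it was 5.88 (3.73 to 9.70). The interval at replicate 3 lies below that over replicates 1 and 2.

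For CAVIN2 the log2 fold change was -3.35 ± 0.82 (SE) over 6 libraries, with an adjusted p of 0.236 in limma voom. It was -4.28 ± 0.61 (SE) in replicates 1 and 2, with an adjusted p of 0.000262 in limma voom. At counts this low the fitted value depended on the tool: DESeq2 gave -2.58 and edgeR -2.56. All settings kept CAVIN2 lower in POU5F1B cells, between -4.44 and -2.53 on the log2 scale.

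CAVIN1 (ENSG00000177469; chromosome 17, 40554467 to 40575274, minus strand), the cavin without which caveolae do not form, was the most abundant of the 10 transcripts per kilobase in both groups. Its level was 400, 370 and 144 CPM in GFP replicates 1, 2 and 3 and 278, 250 and 223 CPM in POU5F1B replicates 1, 2 and 3. GFP replicate 3 was the lowest of all 6 libraries, whereas GFP replicates 1 and 2 were the highest, so the groups overlapped. The log2 fold change was -0.16 ± 0.38 (SE) with an adjusted p of 0.898 in limma voom.

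Without the replicate 3 libraries CAVIN1 was lower in POU5F1B cells by less than 2-fold, with a log2 fold change of -0.56 ± 0.083 (SE) and an adjusted p of 0.000337 in limma voom. In replicate number 3 the direction was the opposite, POU5F1B over GFP being 1.54 to 1, against 0.695 and 0.675 to 1 in numbers 1 and 2. The ratio of CAV1 to CAVIN1 per kilobase did not overlap between groups, at 0.251, 0.260 and 0.654 in GFP replicates 1, 2 and 3 and 0.0924, 0.121 and 0.233 in POU5F1B replicates 1, 2 and 3. In both groups replicate 3 had the highest ratio of CAV1 to CAVIN1. The ratio of CAV2 to CAVIN1 overlapped between groups, at 0.0783 to 0.290 in GFP and 0.0564 to 0.0965 in POU5F1B libraries. That of CAVIN3 to CAVIN1 overlapped too, at 0.0884 to 0.292 in GFP and 0.126 to 0.203 in POU5F1B libraries.

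**Figure D3:**
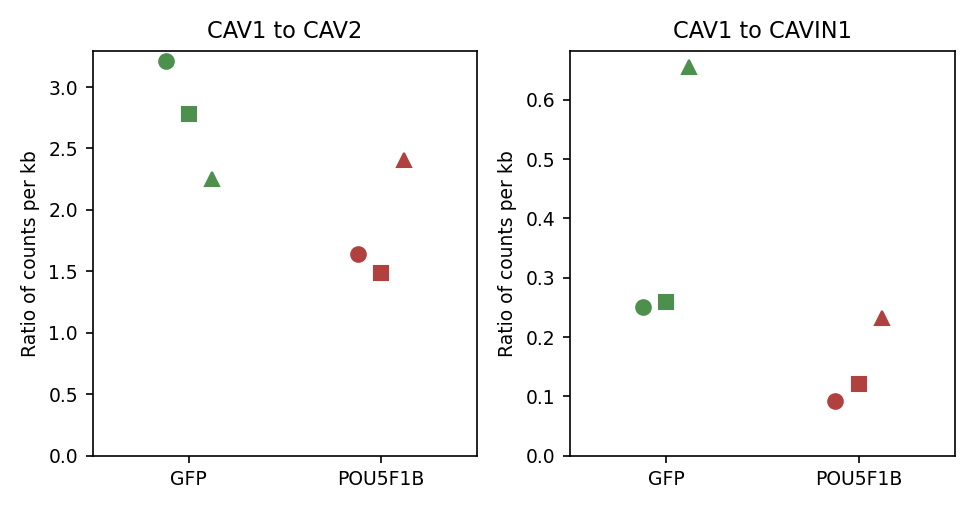
Ratio of counts per kilobase of canonical transcript in each library, CAV1 to CAV2 on the left and CAV1 to CAVIN1 on the right, with circles for replicate 1, squares for replicate 2 and triangles for replicate 3. CAV1 to CAV2 overlaps between groups, 2.25 to 3.21 in GFP and 1.49 to 2.41 in POU5F1B, and CAV1 to CAVIN1 does not, with a lowest GFP value of 0.251 and a highest POU5F1B value of 0.233.

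CAVIN3 (ENSG00000170955; chromosome 11, 6340176 to 6341731, minus strand) encodes a cavin that binds protein kinase C delta. Its level was 10.2, 12.9 and 12.1 CPM in GFP replicates 1, 2 and 3 and 13.2, 9.07 and 13.0 CPM in POU5F1B replicates 1, 2 and 3. The highest and the lowest value were both in POU5F1B libraries. The 95% interval of the log2 fold change ran from -0.54 to 0.52 around -0.0064, with an adjusted p of 0.995 in limma voom.

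Of the coat and neck proteins, EHD1, EHD2 and PACSIN2 overlapped between groups and PACSIN3 did not. EHD2 (ENSG00000024422; chromosome 19, 48216679 to 48246391, plus strand) encodes the ATPase that forms a ring at the neck and keeps caveolae at the cell surface. It had 8.24, 8.90 and 4.51 CPM in GFP replicates 1, 2 and 3 and 6.52, 5.64 and 6.15 CPM in POU5F1B replicates 1, 2 and 3. The POU5F1B libraries all lay between GFP replicate 3 and the other GFP libraries. The log2 fold change was -0.19, with a 95% interval from -0.91 to 0.54 and an adjusted p of 0.842 in limma voom, and -0.50 in replicates 1 and 2 with an adjusted p of 0.0910 in limma voom.

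EHD1 (ENSG00000110047; chromosome 11, 64619114 to 64646093, minus strand), a related ATPase of endocytic recycling, had 120, 117 and 60.0 CPM in GFP replicates 1, 2 and 3 and 115, 93.5 and 101 CPM in POU5F1B replicates 1, 2 and 3. GFP replicate 3 was again the lowest of the 6. The log2 fold change was 0.12, with a 95% interval from -0.53 to 0.78 and an adjusted p of 0.890 in limma voom. Without the replicate 3 libraries it was -0.20 with an adjusted p of 0.189 in limma voom.

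PACSIN2 (ENSG00000100266; chromosome 22, 43265779 to 43411155, minus strand) encodes an F-BAR protein that senses and shapes curved membrane at the neck. It was the member whose level varied least, between 96.0 and 112 CPM in GFP libraries and between 97.1 and 116 CPM in POU5F1B libraries. The 95% interval of the log2 fold change, -0.30 to 0.28, was the narrowest among the 9, with an adjusted p of 0.989 in limma voom. ARFGAP3 overlaps the PACSIN2 locus on the same strand and had up to 841 counts in a library, so reads in shared sequence are uncertain.

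PACSIN3 (ENSG00000165912; chromosome 11, 47199073 to 47207985, minus strand), the F-BAR relative best known from muscle, was the single member higher in every POU5F1B library than in any GFP library. Its level was 35.5, 35.8 and 22.9 CPM in GFP replicates 1, 2 and 3 and 48.2, 42.9 and 39.0 CPM in POU5F1B replicates 1, 2 and 3. The groups did not overlap, and GFP replicate 3 was the lowest library. This was a log2 fold change of 0.48 ± 0.21 (SE) with an adjusted p of 0.427 in limma voom. In replicates 1 and 2 it was 0.34 ± 0.12 (SE) with an adjusted p of 0.0445 in limma voom.

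**Figure D4:**
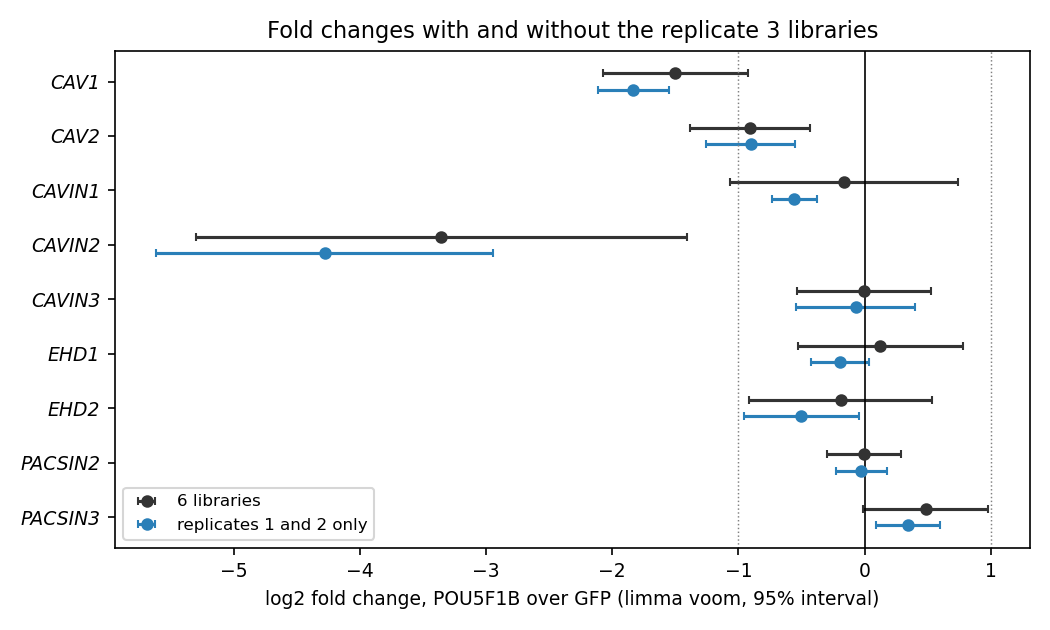
Log2 fold change of POU5F1B over GFP for each tested caveolar gene with its 95% interval from limma voom, black for all 6 libraries and blue for replicates 1 and 2 only, with dotted lines at a 2-fold difference. The intervals of CAV1, CAV2 and CAVIN2 lie below 0 in both fits, that of CAVIN1 crosses 0 with 6 libraries (-1.06 to 0.74) and lies below it with 4 (-0.74 to -0.38), and that of PACSIN3 crosses 0 with 6 libraries (-0.0095 to 0.98).

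Ordered by mean level per kilobase of canonical transcript in GFP cells, the transcripts ran from CAVIN1 (85.3 ± 39.1 CPM per kilobase, SD, n = 3) through PACSIN2 (32.4 ± 2.55), CAV1 (27.2 ± 0.873), EHD1 (22.2 ± 7.58), PACSIN3 (16.8 ± 3.94), CAVIN3 (11.4 ± 1.38), CAV2 (10.1 ± 1.53) and EHD2 (2.06 ± 0.675) to CAVIN2 (1.21 ± 0.333), with CAV3 under the floor. CAV1 and EHD1, EHD1 and PACSIN3, PACSIN3 and CAVIN3, CAVIN3 and CAV2, and EHD2 and CAVIN2 are neighbours in this order whose GFP libraries overlapped. In POU5F1B cells CAV1 stood at rank 6 in place of rank 3, at 10.1 ± 3.90 CPM per kilobase, below CAVIN3 at 11.4 ± 2.27, with overlapping libraries. The other members kept their order among themselves except that EHD1 (23.2 ± 2.50 CPM per kilobase) and PACSIN3 (23.2 ± 2.46) overlapped, and with all annotated exons as the length PACSIN3 came before EHD1.

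Fibroblasts and endothelium, the cell types rich in caveolae that a culture could hold, were examined by their markers. The 9 fibroblast markers summed to between 28.0 and 171 CPM in GFP libraries and between 13.4 and 23.0 CPM in POU5F1B libraries, so this sum was lower in POU5F1B cells without overlap, in the same direction as CAV1, CAV2 and CAVIN2. Most of it was COL1A1, at 141, 118 and 16.8 CPM in GFP replicates 1, 2 and 3 and 6.75, 5.55 and 9.47 CPM in POU5F1B replicates 1, 2 and 3. COL3A1 and FAP were at 0 in every library, and DCN and LUM had reads in the replicate 3 libraries only. COL1A1 did not overlap between groups, with a log2 fold change of -3.22 ± 1.09 (SE) and an adjusted p of 0.340 over 6 libraries and of -4.39 ± 0.20 with an adjusted p of 1.81e-08 in replicates 1 and 2 (limma voom). The only other fibroblast marker tested, PDGFRB, overlapped, at -0.95 ± 0.59 over 6 libraries and -1.80 ± 0.17 in replicates 1 and 2 (log2 fold change, SE). Its adjusted p was 0.569 and 9.73e-06 (limma voom). COL1A2, not tested, had 19, 19 and 1 reads in GFP replicates 1, 2 and 3 and 0, 2 and 1 in POU5F1B replicates 1, 2 and 3. THY1, not tested either, had 3, 9 and 7 against 3, 0 and 2 reads. Its groups did not overlap in CPM only because of library scaling. GFP replicate 3, the GFP library with the least COL1A1, had 65.0 CPM of CAV1, against 69.1 and 66.0 CPM in the other 2. CAVIN1 was 144 CPM there against 400 and 370 CPM, and EHD1, EHD2, PACSIN2 and PACSIN3 were also lowest in that GFP library. CAV2 and CAVIN2 were highest in it, and CAVIN3 lay between the others. Whether these levels are linked to COL1A1 was not tested.

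The 5 endothelial markers found summed to between 1.30 and 6.14 CPM in GFP libraries and 2.66 and 6.52 CPM in POU5F1B libraries, nearly all from VWF, and CLDN5 was at 0 throughout. The 10 markers of colorectal epithelium summed to between 6354 and 9545 CPM in GFP libraries and 7896 and 8908 CPM in POU5F1B libraries. Among them CDH1, the cadherin of epithelial junctions, was higher without overlap, at 33.6, 30.1 and 72.5 CPM in GFP replicates 1, 2 and 3 and 164, 158 and 98.1 CPM in POU5F1B replicates 1, 2 and 3, with an adjusted p of 0.207 in limma voom. Its log2 fold change in replicates 1 and 2 was 2.33 ± 0.11 (SE), with an adjusted p of 1.81e-08 in limma voom. The other 7 tested markers of this list overlapped between groups over 6 libraries, with log2 fold changes from -0.32 for CDX2 to 0.92 for EPCAM. Without the replicate 3 libraries EPCAM stood at 1.87 (adjusted p of 1.24e-08), VIL1 at 1.16 (0.000700), KRT19 at 0.72 (0.000113) and KRT18 at 0.24 (0.00852) in limma voom. CDX2 stood at -0.58 (adjusted p of 0.0333 in limma voom), and KRT8 and KRT20 had an adjusted p above 0.05. By adjusted p alone, 14.1% of all tested genes were higher and 15.5% lower in replicates 1 and 2. The part of these markers in the caveolar differences was not tested.

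CAV1 and CAV2 lie within a stretch of chromosome 7 where 20 annotated genes start within 500 kb of the start of CAV1, and 7 of them were tested. TES, which encodes the focal adhesion protein testin and starts at -314.5 kb relative to CAV1, was 175, 161 and 156 CPM in GFP replicates 1, 2 and 3 and 100, 99.5 and 125 CPM in POU5F1B replicates 1, 2 and 3. The TES groups did not overlap, with a log2 fold change of -0.61 ± 0.13 (SE) and an adjusted p of 0.207 in limma voom, or -0.76 ± 0.088 with an adjusted p of 5.48e-05 in replicates 1 and 2 (limma voom).

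On the other side of CAV1 the groups overlapped. MET, the receptor of hepatocyte growth factor, starts 147.2 kb after CAV1 and had 16.0, 16.5 and 119 CPM in GFP replicates 1, 2 and 3 and 12.4, 11.1 and 36.9 CPM in POU5F1B replicates 1, 2 and 3. Both replicate 3 libraries were far above the others for MET. Its log2 fold change was -0.84 ± 0.90 (SE) with an adjusted p of 0.746 over 6 libraries and -0.48 ± 0.17 with an adjusted p of 0.0471 in replicates 1 and 2 (limma voom), where it was under the 2-fold limit. The log2 fold changes farther out were -0.37 ± 0.23 (SE) for CAPZA2, an actin capping subunit, -0.33 ± 0.21 for ST7 and -0.43 ± 0.47 for ST7-AS1, its antisense transcript, whose reads cannot be told apart from those of ST7 without a stated strand setting. Adjusted p in limma voom was between 0.558 and 0.750 for these 3, and the value of CAV1 was the lowest of the 7.

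**Figure D5:**
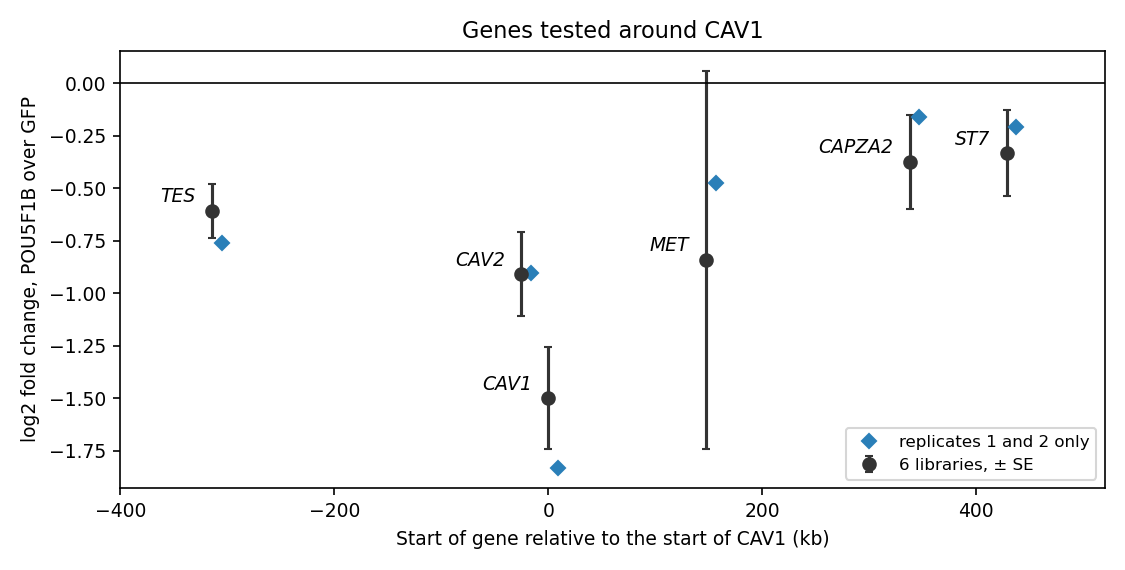
Log2 fold change of POU5F1B over GFP for the genes tested within 500 kb of the start of CAV1, against the distance of each start from that of CAV1 in kb, with black circles and ± SE for 6 libraries and blue diamonds, drawn slightly to the right, for replicates 1 and 2 only. ST7-AS1, which starts 427.4 kb from CAV1, is not drawn because it would cover ST7, and CAV1 has the lowest value at -1.50.

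Genes whose pattern over the 6 libraries was most like that of CAV1 were found by the root-mean-square distance between centred log2 CPM values, among all tested genes. The nearest were RBPMS, which encodes an RNA-binding protein, at a distance of 0.0855, RASGRF1, a Ras exchange factor, at 0.100, the forkhead transcription factor FOXA2 at 0.106, VEPH1 at 0.140 and ERICH1 at 0.144 log2 units. RBPMS, for example, had 9.17, 7.68 and 8.32 CPM in GFP replicates 1, 2 and 3 and 2.36, 2.78 and 4.73 CPM in POU5F1B replicates 1, 2 and 3. Each of these genes thus had like values in the GFP libraries, low values in POU5F1B replicates 1 and 2 and a middle value in POU5F1B replicate 3. Among the other caveolar genes CAV2 was the nearest, at rank 130 and a distance of 0.393, and PACSIN3 the farthest, at rank 12374 and 1.08.

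A list of 23 genes linked to caveolae or to membrane rafts was set beside the members: relatives, dynamins for vesicle release, actin anchors, kinases, flotillins and stomatin, cargo and partners, and the transferrin receptor as a non-caveolar control. Of these, 19 were tested. Over 6 libraries 0 passed the threshold in limma voom (beside 0% of all tested genes) and 0 in DESeq2 (beside 1.62%). In edgeR 0 passed too, where the share of all tested genes was not computed. At an unadjusted p under 0.05 in limma voom there were 2 of the 19, beside 11.9% of all tested genes. The median log2 fold change of the 19 was -0.037, with 10 below 0 and 9 above, beside -0.023 for all tested genes. Of the 19, groups did not overlap for 3 lower genes (PRKCA, FLOT1 and TFRC), beside 9.21% of all tested genes, and for 2 higher genes (SCARB1 and INSR), beside 10.2%. The filter on low counts removed the other 4. CAVIN4 had 3, 8 and 6 counts in GFP replicates 1, 2 and 3 and 2, 2 and 3 in POU5F1B replicates 1, 2 and 3. Its groups did not overlap in CPM only because of library scaling. GFP replicate 1 (0.252 CPM) and POU5F1B replicate 3 (0.249 CPM) both held 3 counts, the floor. EHD3 had no count and TFPI had 1 in all. CD36, a fatty acid receptor, had 189 counts in GFP replicate 3, 25 in POU5F1B replicate 3 and none in the other 4 libraries.

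PRKCA, a protein kinase C isoform that acts on caveolar proteins, had the largest log2 fold change of the 19 tested linked genes. Its level was 154, 147 and 139 CPM in GFP replicates 1, 2 and 3 and 63.4, 57.8 and 116 CPM in POU5F1B replicates 1, 2 and 3. All POU5F1B libraries were below all GFP libraries, and POU5F1B replicate 3 was the one nearest to them. The log2 fold change was -0.96 ± 0.26 (SE) with an adjusted p of 0.261 in limma voom, and in replicates 1 and 2 it was -1.33 ± 0.096 (SE) with an adjusted p of 1.34e-06 in limma voom.

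FLOT1, which encodes the raft scaffold flotillin-1, was 74.3, 69.0 and 86.9 CPM in GFP replicates 1, 2 and 3 and 51.7, 45.0 and 62.0 CPM in POU5F1B replicates 1, 2 and 3. The groups did not overlap, with a log2 fold change of -0.54 ± 0.16 (SE) and an adjusted p of 0.305 in limma voom. Its partner FLOT2 overlapped between groups, with a log2 fold change of 0.029 over 6 libraries and -0.29 in replicates 1 and 2 (adjusted p of 0.0353 in limma voom). The lipoprotein receptor SCARB1 (0.25 ± 0.11, SE) and the insulin receptor INSR (0.25 ± 0.15) were slightly higher, and the transferrin receptor TFRC (-0.24 ± 0.15) slightly lower, all in log2 fold change with adjusted p between 0.437 and 0.576 in limma voom. TFRC was 667, 648 and 919 CPM in GFP replicates 1, 2 and 3. In replicates 1 and 2 its log2 fold change was -0.053, with an adjusted p of 0.579 in limma voom.

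In replicates 1 and 2, 7 of the 19 tested linked genes were lower (beside 15.5% of all tested genes) and 0 higher (beside 14.1%) by adjusted p alone in limma voom. PRKCA passed the fold limit too, as lower (1 of 19, beside 5.15% of all tested genes that passed as lower). The 7 were PRKCA, ABL1, FLOT1, FLNA, SRC, ROR1 and FLOT2. At replicate number 3 PRKCA, FLOT1 and ROR1 were lower in the POU5F1B library as well, whereas ABL1, FLNA, SRC and FLOT2 were higher. Over 6 libraries the log2 fold change was -0.36 for ABL1, -0.23 for FLNA, -0.037 for SRC and -0.48 for ROR1. Their adjusted p over 6 libraries was between 0.485 and 0.977 in limma voom. FLNA, which encodes the actin crosslinker filamin A, was abundant, at 2323 to 3458 CPM in GFP libraries and 2160 to 2747 CPM in POU5F1B libraries. GFP replicate 3 was the lowest GFP library for FLNA, as it was for CAVIN1, EHD1 and EHD2.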

How the data were processed

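The authors deposited 1 table of raw read counts per library, by Ensembl gene, for 6 libraries of SW480 cells. Per the methods and labels, polyA RNA was prepared with a stranded kit, reads were mapped to hg19 with hisat2, and uniquely mapped reads were counted with featureCounts against genes and transposable elements. The strand setting and the annotation release are not given in the sources used here.

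Groups and replicate numbers were taken from sample titles. Genes were filtered with filterByExpr and scaled by TMM (edgeR 4.0.16), and tested by voom in limma 3.58.1 (R 4.3.3) with group as the only term and Benjamini-Hochberg adjustment across 14286 genes. Log2 CPM used a prior count of 2. Alternatives were edgeR's quasi-likelihood test, DESeq2 1.42.0, sample quality weights, DESeq2 size factors, total counts, no filter beyond 1 count, the replicate number as a block, replicates 1 and 2 only, adjusted p alone and leaving out each library. The fits were tested on simulated data. The members and lists were chosen with earlier results of these data known. Genes named are the 10 members, linked genes whose groups do not overlap or that pass the threshold, tested genes starting within 500 kb of CAV1, the 5 genes nearest to CAV1 in pattern, and POU5F1B; markers, other linked genes, and the genes that overlap a member were named after their values were seen. Of the 62 symbols listed, 61 were matched. Coordinates are 1-based on GRCh37 from GENCODE as lifted to that build. A floor of 3 counts and the counting intervals cover counting error only. The labels give replicate numbers and name no batch.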

Additional observations from a re-analysis of the deposited data

How the results depend on the processing

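The number of caveolar members past the threshold was 0 with edgeR, DESeq2 size factors, total counts, no filter and adjusted p alone, 1 with DESeq2, 2 with sample quality weights, 2 with replicates 1 and 2 only, and 0 to 2 when each library was left out, the 2 coming without GFP replicate 3. For the linked genes it was 1 with sample quality weights, 1 with replicates 1 and 2 only, and 0 to 1 when each library was left out, again without GFP replicate 3, and it was 0 otherwise. CAV1, CAV2, CAVIN2 and PACSIN3 kept their direction under every alternative run. The adjusted p of CAV1 ranged from 1.19e-06 to 0.927 over the alternatives and that of CAVIN2 from 0.000262 to 0.933, and leaving out POU5F1B replicate 1 gave the largest for both. CAVIN1 ran from -0.64 to 0.098 on the log2 scale when each library was left out, above 0 without GFP replicate 1 (0.098) or GFP replicate 2 (0.068). EHD1 was -0.12 with sample quality weights, -0.20 with replicates 1 and 2 only and -0.21 to 0.30 when each library was left out, and EHD2 ran from -0.50 to 0.018 when each was left out. CAVIN3 was 0.0022 with edgeR, 0.0064 with DESeq2, 0.013 with sample quality weights, 0.031 with total counts and 0.0058 with no filter, and ran from -0.11 to 0.16 when each library was left out. PACSIN2 was 0.033 with total counts and 0.0058 with no filter, and ran from -0.081 to 0.057 when each was left out. The cause of these changes was not tested beyond the libraries named.

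Same-numbered libraries correlated at 0.24, 0.088 and 0.16 in their deviations from the group means for numbers 1, 2 and 3, so the numbers were not taken to pair the samples. GFP replicates 1 and 2 both correlated best with POU5F1B replicate 1, at 0.24 and 0.25. GFP replicate 3 correlated best with POU5F1B replicate 3, at 0.16 against -0.28 and 0.013 with POU5F1B replicates 1 and 2. With the replicate block 0 members and 0 linked genes passed, and CAV1 stood at -1.47 with an adjusted p of 0.253 in limma voom. Depth limits CAV3, which could not be tested, and CAVIN2, which rests on 1 to 53 reads a library.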
